A study of Mus musculus with 18 samples.

Results

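The 10 microRNAs described here are mature arms from the imprinted Dlk1-Dio3 locus of mouse chromosome 12: mmu-miR-127-3p, mmu-miR-434-3p, mmu-miR-411-5p, mmu-miR-379-5p, mmu-miR-541-5p, mmu-miR-382-5p, mmu-miR-485-3p, mmu-miR-409-3p, mmu-miR-300-3p and mmu-miR-154-5p. They were chosen by name from a table of 1251 microRNA entries. The table covers small RNA sequencing of 18 skin libraries from 6 female SKH-1E mice, an outbred Hairless strain, all from 1 litter and numbered 2, 3, 7, 8, 9 and 10. All mice lacked the Hairless gene and were irradiated repeatedly with UV from solar simulators, starting at an age of 3 months. Tissue was taken after irradiation had ended, and no library comes from unexposed skin. Each mouse gave 3 libraries: nonlesional, chronically UV-exposed skin (CHR), a papilloma (PAP, the precancerous lesion of this model) and an invasive cutaneous squamous cell carcinoma (cuSCC), the lesions having been reviewed by histology. The design therefore asks how these microRNAs differ between exposed skin, the precancerous lesion and the carcinoma of the same animals, with n = 6 per sample type.

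In the mouse the Dlk1-Dio3 locus is expressed according to the parent of origin. The protein-coding genes Dlk1, Rtl1 and Dio3 are transcribed from the paternal chromosome, whereas the long noncoding RNAs Meg3, Rian and Mirg and the microRNAs are transcribed from the maternal chromosome. The microRNA hairpins lie in a small upstream group, antisense to the retrotransposon-derived gene Rtl1, and in a long array that runs from Mir379 to Mir410 and overlaps Mirg. These microRNAs are known for high levels in the embryo, placenta and brain, and for lower levels in most adult tissues. miR-127 and miR-434 match the Rtl1 mRNA perfectly and direct its cleavage.

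The mature sequences of the members are shown because they tell the near-identical arms apart, whose reads could be confused, and show which members could share targets. All 10 matched by name in RefSeq (GRCm38.p6), from which the sequences are taken, and the capitals mark the seed, bases 2 to 8 from the 5′ end, which pairs with target mRNAs. The first 2 come from the upstream group and the other 8 from the Mir379 to Mir410 array, in chromosome order.
mmu-miR-127-3p: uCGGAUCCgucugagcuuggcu
mmu-miR-434-3p: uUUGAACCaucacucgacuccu
mmu-miR-379-5p: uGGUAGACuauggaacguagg
mmu-miR-411-5p: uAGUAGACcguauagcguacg
mmu-miR-300-3p: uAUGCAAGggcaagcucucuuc
mmu-miR-382-5p: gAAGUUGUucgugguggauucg
mmu-miR-485-3p: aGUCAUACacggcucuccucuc
mmu-miR-154-5p: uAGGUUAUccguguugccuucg
mmu-miR-541-5p: aAGGGAUUcugauguuggucacacu
mmu-miR-409-3p: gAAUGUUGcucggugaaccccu

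No pair of members shared a seed. The seeds of miR-379-5p and miR-411-5p, neighbours in the array, differed at 1 base (G2A, with the base of miR-379-5p first and positions counted from 1 at the 5′ end), and the whole arms differed at 7 of 21 positions. miR-300-3p was closest to a locus arm that is no member, miR-381-3p, with 3 differences over 22 bases (G4A, U21G and C22U, with the base of miR-300-3p first). How reads that match both arms were divided is not given in the sources used here, so the level of miR-300-3p is uncertain to that extent. The sequence of miR-381-3p is given for comparison.
mmu-miR-381-3p: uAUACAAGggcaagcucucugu

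All member hairpins lie on the plus strand of chromosome 12 (GRCm38). Mir127 (chr12:109592846-109592915) and Mir434 (chr12:109594506-109594599) lie within an exon of Rtl1 on its opposite strand. Mir379 (chr12:109709060-109709125), 116.21 kb downstream of Mir127, Mir411 (chr12:109710175-109710256) and Mir300 (chr12:109724313-109724391) lie between annotated genes. Mir382 (chr12:109733771-109733846) and Mir485 (chr12:109734902-109734974) lie in exons of Mirg. Mir154 (chr12:109738433-109738498), Mir541 (chr12:109742409-109742498) and Mir409 (chr12:109743158-109743236) lie in introns of Mirg, with Mir409 150.31 kb from Mir127.

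The members fell into an often-detected and a rarely detected group. Levels are log2 values of ppm, the reads of a microRNA per 1000000 usable small RNA reads, and an undetected entry stands at 3.32, the log2 of 10 ppm. Above 3.3220 were miR-127-3p and miR-434-3p in 18 of 18 libraries, and miR-411-5p and miR-409-3p in 17 libraries each. miR-485-3p exceeded it in 8 libraries, miR-382-5p in 7, miR-300-3p in 5, miR-379-5p and miR-154-5p in 2 each, and miR-541-5p in 0. Depth per library is unknown, so a value of 3.32 says that a microRNA was not detected, not that it was absent.

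Because the values were quantile normalised, a level mainly gives a microRNA's rank within its library. Detection also differed between libraries. Between 200 and 328 of the 1251 entries were detected per CHR library, 163 to 281 per PAP library and 236 to 365 per cuSCC library. The lowest detected level was 3.39 to 5.77 in CHR, against 3.71 to 6.83 in PAP and 3.32 to 4.50 in cuSCC. Under this normalisation it followed the number of detected entries, from 6.83 at 163 entries to 3.32 at 365. It is therefore no separate detection limit in ppm. The PAP of mouse 10 had the fewest detected entries, 163, and the highest lowest level, 6.83, close to the PAP of mouse 7 (171 and 6.72). The cuSCC of mouse 10 had the fewest among the cuSCC, 236, near the 254 of mouse 8. In both of these mouse 10 libraries the mean level of the 4 often-detected members was the lowest of its type. It was 5.93 in PAP (next 9.07) and 8.88 in cuSCC (next 10.07). Results are also given without these libraries of mouse 10, a choice made after seeing the data.

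miR-127-3p was the most abundant member in all 3 sample types. It ranged from 13.02 to 13.77 log2 ppm in CHR (median 13.34), from 10.02 to 14.22 in PAP (median 12.87) and from 11.72 to 14.44 in cuSCC (median 13.68). It held ranks 26 to 34 among all entries of a CHR library, 23 to 81 in PAP and 21 to 54 in cuSCC. The CHR libraries lay within a narrow band inside the range of both lesion types, and mouse 10 gave the lowest level in each type.

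miR-434-3p, from the hairpin next to Mir127, followed the same order of types at a lower level. It measured 8.40 to 10.14 log2 ppm in CHR (median 9.55), 7.05 to 10.14 in PAP (median 8.91) and 8.07 to 10.96 in cuSCC (median 10.36). The cuSCC level was above that of the PAP in 6 of 6 mice and above that of CHR in 4 of 6. The ranges of all 3 types overlapped, and mouse 10 was again lowest in each.

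miR-411-5p, from the start of the array, had the widest span. It measured 7.58 to 9.83 log2 ppm in CHR (median 8.78), 3.32 to 10.19 in PAP (median 8.98) and 8.93 to 12 in cuSCC (median 10.65). In 6 of 6 mice the cuSCC was above the CHR, and 4 of 6 cuSCC libraries were above every CHR library and above every PAP library. The single undetected library was the PAP of mouse 10, where no entry under 6.83 was recorded; the other PAP libraries began at 8.54.

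miR-409-3p, from the far end of the array, did not share the higher cuSCC level. It measured 6.57 to 8.67 log2 ppm in CHR (median 7.95), 3.32 to 8.36 in PAP (median 7.53) and 6.80 to 8.69 in cuSCC (median 8.24). The CHR and cuSCC ranges were nearly the same, and the PAP was below the CHR in 6 of 6 mice. The PAP of mouse 10 was undetected here too, with the next PAP at 6.68.

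The rarely detected members lay near the lowest value. miR-485-3p was detected in 2 CHR, 2 PAP and 4 cuSCC libraries, with highest levels of 5.82, 6.17 and 5.32 log2 ppm. miR-382-5p was detected in 2 CHR, 0 PAP and 5 cuSCC libraries, reaching 3.80 in CHR and 4.27 in cuSCC. miR-300-3p was detected in 1 CHR library, at 4.43, in 0 PAP libraries and in 4 cuSCC libraries, at 6.71, 6.22, 5.80 and 4.41 in mice 2, 3, 7 and 9. miR-379-5p and miR-154-5p were detected in 2 cuSCC libraries each, reaching 3.81 and 3.52. In 5 of 6 PAP libraries the lowest detected level was between 4.77 and 6.83, above every level of miR-382-5p, miR-379-5p and miR-154-5p. This level follows the number of entries detected, so their absence from PAP cannot be told apart from fewer detected entries.

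**Figure D1:**
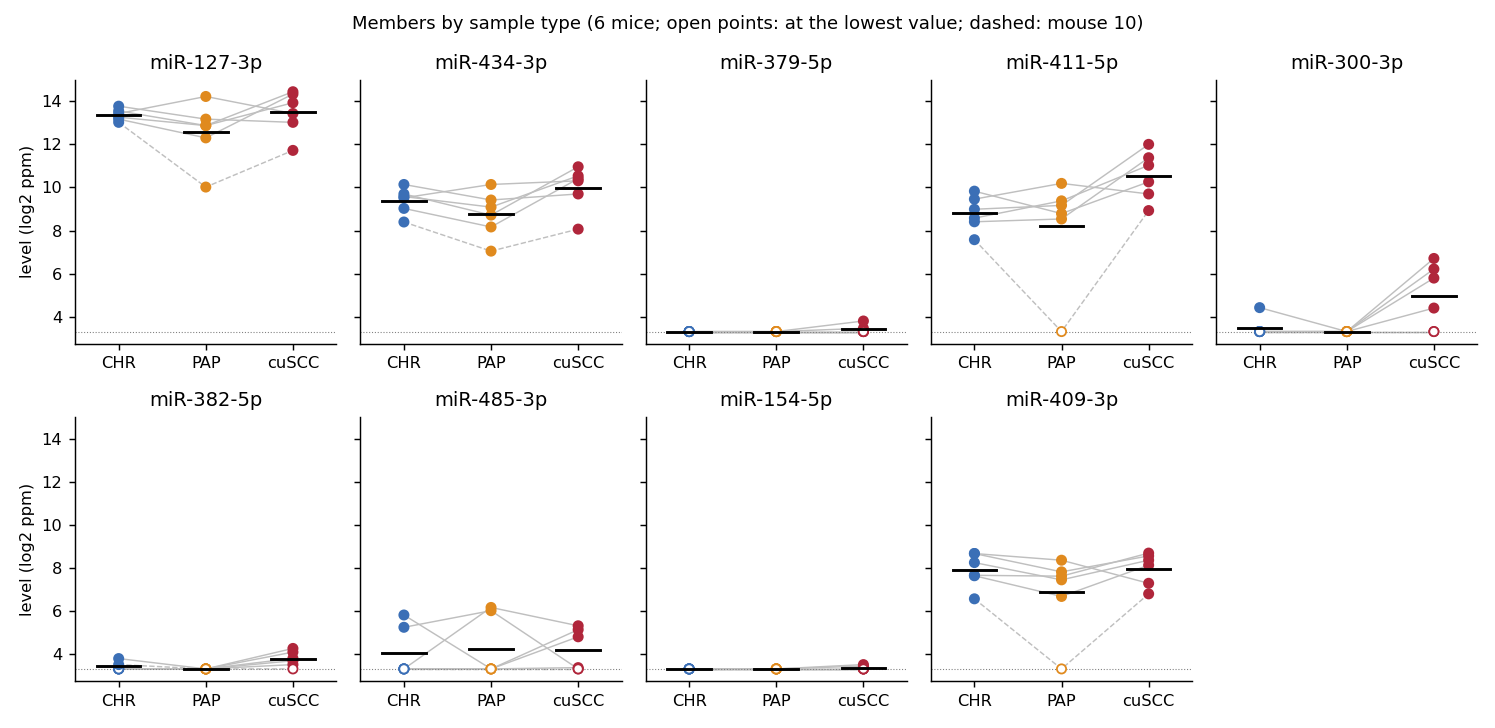
Levels (log2 ppm) of the 9 members detected in any library, by sample type, in chromosome order. Each point is 1 library and open points are undetected, grey lines join the libraries of a mouse (dashed for mouse 10), black bars are means and the dotted line is the lowest value of 3.32; the cuSCC points of miR-411-5p (8.93 to 12) reach above those of CHR (7.58 to 9.83), whereas those of miR-409-3p (6.80 to 8.69 and 6.57 to 8.67) do not.

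Within each sample type the 4 often-detected members kept nearly the same order. Since ppm is a share of reads and the mature arms are all 21 to 25 bases long, levels are compared without a correction for length. In CHR the order was miR-127-3p, miR-434-3p, miR-411-5p and miR-409-3p, each higher than the next in 6 of 6 mice, by 3.97 ± 0.41, 0.59 ± 0.37 and 0.90 ± 0.33 on the log2 scale (mean ± SD, n = 6). In cuSCC miR-411-5p stood second, above miR-434-3p in 5 of 6 mice, by 0.55 ± 0.73 log2, a difference within its spread. In PAP the same pair differed by 0.53 ± 1.62 log2 the other way, but with miR-434-3p higher in only 2 of 6 mice. That mean includes the undetected miR-411-5p of mouse 10, where miR-411-5p minus miR-434-3p was -3.73. In the 5 PAP libraries with both detected, this difference had a median of 0.08 (-0.63 to 0.65). All differences between neighbours among the rarely detected members were within their spread or rested on undetected values.

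The distance of miR-411-5p from 2 of the other 3 often-detected members did not overlap between CHR and cuSCC, whereas the remaining pairs overlapped. The level of miR-411-5p minus that of miR-127-3p in the same library was -5.43 to -3.93 log2 in CHR and -3.73 to -2.44 in cuSCC, without overlap. It lay 0.32 to 1.21 log2 units above miR-409-3p in CHR and 1.34 to 3.44 above it in cuSCC, again without overlap. Its distance from miR-434-3p, -1.13 to -0.06 in CHR and -0.60 to 1.47 in cuSCC, did overlap. Likewise, miR-409-3p minus miR-127-3p was -6.44 to -4.88 in CHR and -5.88 to -4.91 in cuSCC. miR-434-3p minus miR-127-3p was -4.62 to -3.47 in CHR and -3.91 to -3.12 in cuSCC. miR-434-3p minus miR-409-3p was 0.91 to 2.05 in CHR and 1.26 to 2.41 in cuSCC, with means of 1.49 and 2.03. These differences describe unequal levels within a library and were not tested. The 2 gaps without overlap were narrow, from -3.93 to -3.73 and from 1.21 to 1.34. How often other pairs of entries lack overlap was not counted. As given below, 42.3% of all tested entries differed between cuSCC and CHR by limma (adjusted p under 0.05), so such pairs may be common. That share is of single entries and does not replace a count of pairs. The lack of overlap is therefore not read as particular to miR-411-5p.

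**Figure D2:**
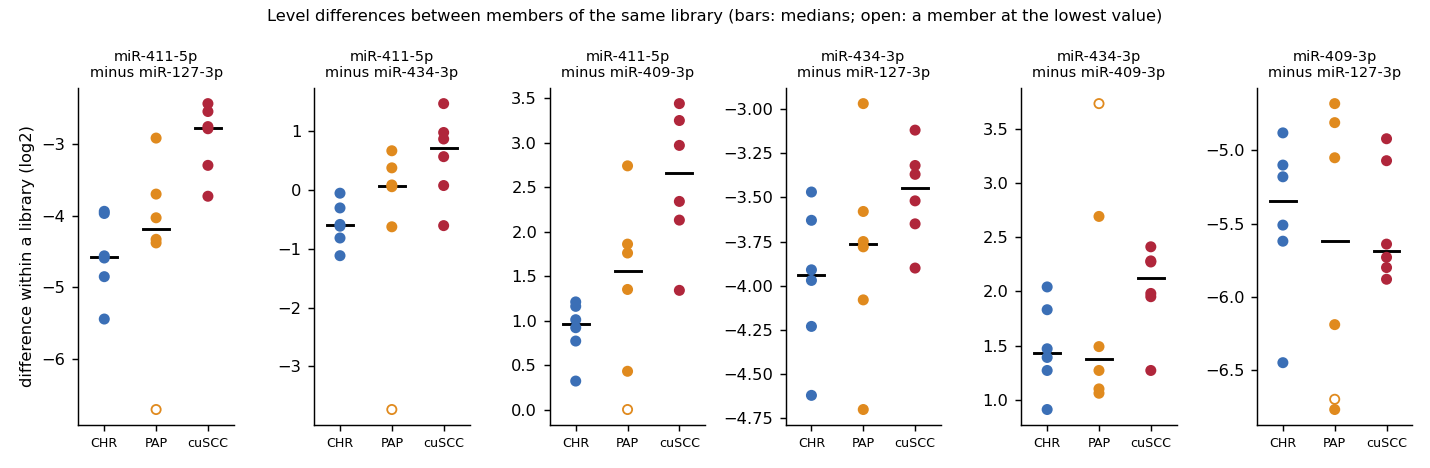
Differences between the levels of 2 members of the same library (log2) by sample type, 1 point per library, with black bars for medians and open points where a member was undetected; the vertical scales differ. The cuSCC points lie above the CHR points without overlap for miR-411-5p minus miR-127-3p (-3.73 to -2.44 against -5.43 to -3.93) and minus miR-409-3p (1.34 to 3.44 against 0.32 to 1.21). How often other pairs of entries lack overlap was not counted.

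Of the 10 members, 6 passed the minimum of 6 libraries with detection and were among the 293 entries tested. miR-300-3p, miR-379-5p, miR-154-5p and miR-541-5p were not tested, and miR-382-5p passed largely through its 5 cuSCC libraries. Each pair of sample types was compared with limma, 6 libraries against 6, with Benjamini-Hochberg adjustment over the 293 tested entries. An entry was called at an adjusted p under 0.05. The 3 comparisons share libraries and are not independent of each other.

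Between PAP and CHR, no tested member was called. Levels in PAP differed from CHR by -0.79 ± 0.55 log2 for miR-127-3p (± SE, adjusted p = 0.297), -0.63 ± 0.48 for miR-434-3p (adjusted p = 0.34), -0.58 ± 0.96 for miR-411-5p (adjusted p = 0.676) and -1.03 ± 0.74 for miR-409-3p (adjusted p = 0.317). miR-485-3p differed by 0.19 and miR-382-5p by -0.11. The count was 0 of 6 members by limma, against 32.4% of all 293 entries. At an unadjusted limma p under 0.05 it was also 0, against 124 of 293 entries. An exact permutation test took 0 members as well, against 90 entries at an adjusted and 115 at an unadjusted p under 0.05. The study's own rule, which asks for a 1.5-fold difference at an unadjusted p under 0.05, also took 0 members, against 42.0% of all entries. The median log2 difference was -0.60 over the 6 members and -0.23 over all tested entries. Without the PAP of mouse 10 the differences were -0.28 for miR-127-3p, -0.29 for miR-434-3p, -0.32 for miR-409-3p and 0.40 for miR-411-5p, so that the last turned its direction.

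Between cuSCC and CHR, miR-411-5p rose and was the only member called. Its level was 8.81 ± 0.80 log2 ppm in CHR and 10.55 ± 1.13 in cuSCC (mean ± SD, n = 6), a log2 difference of 1.74 ± 0.52 (± SE, 95% confidence interval 0.64 to 2.85, 3.35-fold, limma adjusted p = 0.0157). The exact permutation test gave an unadjusted p of 0.0173. The other 5 tested members differed by 0.60 ± 0.46 for miR-434-3p (adjusted p = 0.297), 0.35 for miR-382-5p, 0.16 for miR-485-3p, 0.11 ± 0.42 for miR-127-3p (adjusted p = 0.845) and 0.06 ± 0.43 for miR-409-3p (adjusted p = 0.905). The confidence interval for miR-409-3p, -0.86 to 0.98, still includes a change of nearly 1 log2 unit either way. With 1 of 6 members called, against 42.3% of all tested entries, the share of members called was below that of all entries. By the study's rule 1 of 6 members passed, against 51.5% of all entries.

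The call for miR-411-5p depended on which mice were included. It was lost without mouse 2 (adjusted p = 0.0572), mouse 3 (adjusted p = 0.0779) or mouse 7 (adjusted p = 0.0546), the 3 mice with the highest cuSCC levels of miR-411-5p, at log2 differences of 1.49, 1.5 and 1.6. It was also lost when all 18 libraries were fitted together (adjusted p = 0.125), where the spread includes the PAP libraries. Without the cuSCC of mouse 10 the log2 difference was 2.07 for miR-411-5p (adjusted p = 0.00353), and miR-434-3p was then called as well, at 0.99 (adjusted p = 0.0312), giving 2 of 6 members against 44.7% of all entries.

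Between cuSCC and PAP, no member was called by limma at an adjusted p under 0.05. The differences were 2.32 ± 1.01 log2 for miR-411-5p (± SE, unadjusted p = 0.0392, adjusted p = 0.155), 1.23 ± 0.57 for miR-434-3p (adjusted p = 0.179), 1.10 ± 0.74 for miR-409-3p (adjusted p = 0.343), 0.90 ± 0.66 for miR-127-3p (adjusted p = 0.374), 0.47 for miR-382-5p and -0.03 for miR-485-3p. At an unadjusted p under 0.05, limma took 1 member, miR-411-5p, and the exact permutation test took 2, miR-411-5p and miR-382-5p, of which the second rests on undetected PAP values at 3.32 and turned to -1.5 when these were given the lowest level detected in their library. The 0 of 6 members called stood against 11.6% of all entries, and the 1 member that passed the study's rule, miR-411-5p, against 28.3%. The median log2 difference was 1.0 over the 6 members and 0.21 over all tested entries. Without mouse 10 in either type, miR-411-5p at 1.66 (adjusted p = 0.033) and miR-434-3p at 1.27 (adjusted p = 0.0427) were called, against 20.1% of all entries. Without the cuSCC of mouse 10 alone, only miR-434-3p was called, at 1.62 (adjusted p = 0.0414), against 17.4% of all entries. Without the PAP of mouse 10 alone, no member was called by limma, and the differences were 1.34 for miR-411-5p (adjusted p = 0.114), 0.89 for miR-434-3p (adjusted p = 0.272), 0.39 for miR-409-3p and 0.39 for miR-127-3p, against 5.12% of all entries called.

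The rest of the locus was then examined. By hairpin position 114 entries of the table lie between Dlk1 and Dio3, the members included, of which 44 were detected in at least 1 library and 20 were tested, 6 members and 14 others. Per library 7 to 23 locus entries were detected in CHR (median 17.5), 2 to 16 in PAP (median 8.5) and 7 to 41 in cuSCC (median 27.5). As a share of all entries detected in a library, this was a median of 5.82% in CHR, 4.04% in PAP and 9.12% in cuSCC, with ranges of 3.50 to 7.69%, 1.23 to 5.69% and 2.97 to 11.23% that overlap. Of the 44 detected locus entries, 21 were detected in cuSCC libraries alone, 2 in CHR alone and 0 in PAP alone. In the whole table, these entries included, the counts were 63, 23 and 3. These are counts among the entries detected in at least 1 library, not among all entries of the table. Shares were not compared, so nothing particular to the locus is read from these counts. The locus entries found in cuSCC alone reached at most 4.77 (miR-136-3p). The lowest detected level was 3.39 to 5.77 in CHR, and 4.77 or higher in PAP except for mouse 8 (3.71). Detection in cuSCC alone therefore does not show absence from CHR or PAP. miR-299a-5p and miR-299b-5p had the same range and ranks in cuSCC (3.32 to 4.34, ranks 242 to 306). Whether they share reads was not tested. Mouse 10 gave the lowest count among the PAP, 2 locus entries, and among the cuSCC, 7, whereas its CHR had 18.

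**Figure D3:**
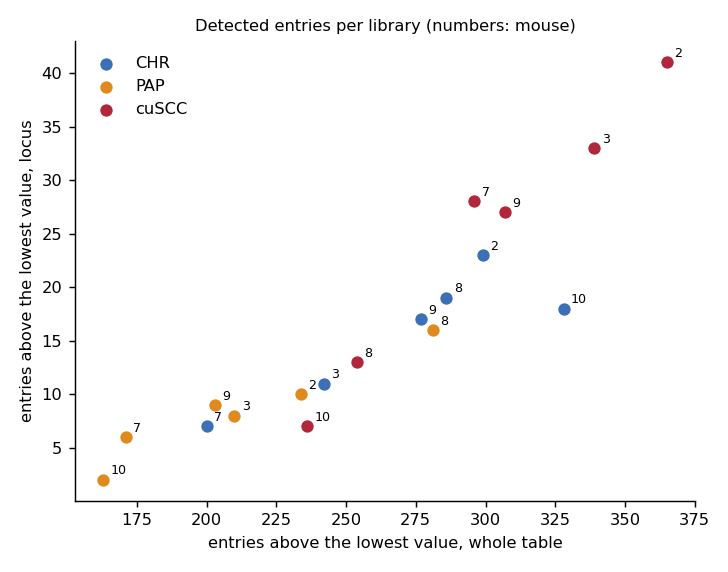
Entries detected per library, with all 1251 entries of the table on the horizontal axis and the 114 entries of the locus on the vertical axis, 1 point per library, coloured by sample type and numbered by mouse. The cuSCC of mice 2, 3, 7 and 9 hold 27 to 41 locus entries, more than any CHR (7 to 23) or PAP (2 to 16) library, and also 296 to 365 entries in all.

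Between cuSCC and CHR, 3 of the 14 other tested locus entries were called, 2 of them higher in cuSCC, against 42.3% of all tested entries. miR-434-5p, the other arm of the miR-434 hairpin, was higher in cuSCC by 2.31 ± 0.69 log2 (± SE, limma adjusted p = 0.0167), and miR-410-3p, from the last hairpin of the array, by 1.47 ± 0.53 (adjusted p = 0.0365). miR-667-3p was lower, by -0.91 ± 0.30 (adjusted p = 0.027), and was lost with mouse as a block (adjusted p = 0.0529). It lay near the lowest value, at most 4.96 in CHR and detected in 1 cuSCC library, at 3.50. With undetected entries given the lowest level detected in the same library, its call was lost too (adjusted p = 0.0573). The calls for miR-434-5p and miR-410-3p were lost without mouse 2 (adjusted p = 0.0764 and 0.12), mouse 3 (0.0868 and 0.112) or mouse 7 (0.0687 and 0.0609), the mice on which the call for miR-411-5p also rested. Both were lost by the exact permutation test (adjusted p = 0.0634 for each), miR-410-3p also in the fit of all 18 libraries (0.126) and without the filter on detection (0.0785). Raising low levels to 100 ppm left a difference of 0.52 for miR-434-5p (adjusted p = 0.0826). The call for miR-667-3p was also lost without mouse 2, 3, 8 or 9 (adjusted p = 0.0789, 0.0889, 0.0829 and 0.0719). Without the cuSCC of mouse 10, 8 of the 20 tested locus entries were called higher and 1 lower, against 44.7% of all entries called.

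Between PAP and CHR, 1 of 14 was called, against 32.4% of all tested entries. miR-1247-5p, which lies 685.2 kb from Mir127 in an exon of Dio3os and on the minus strand, fell by 3.40 log2 (SE 0.38, adjusted p = 2.6e-05). It measured 6.35 to 7.80 log2 ppm in CHR and was detected in 1 PAP, at 5.11. The other 5 PAP values are undetected entries at 3.32, and in the PAP of mice 7 and 10 the lowest detected level, 6.72 and 6.83, was above the lowest CHR level, so that a separation was not measured there. When 100 ppm, a level within the CHR range of miR-1247-5p, was taken as the lowest value, the difference was -0.45 (limma adjusted p = 0.124). The call was kept in 14 of 15 alternatives, also with undetected entries given the lowest level detected in the same library. Between cuSCC and PAP, 2 of 14 were called, against 11.6% of all tested entries. miR-1247-5p was higher in cuSCC by 2.12 ± 0.57 log2 (adjusted p = 0.0394) and miR-134-5p, known from neurons as a regulator of dendritic spines, by 1.59 ± 0.46 (adjusted p = 0.041). Both calls were lost on leaving out mouse 2 (adjusted p = 0.125 and 0.0631), 3 (0.172 and 0.172), 7 (0.128 and 0.137), 8 (0.096 and 0.149) or 9 (0.091 and 0.109), and without the PAP of mouse 10 (0.0594 and 0.0622). They were also lost without the filter on detection (0.0646 and 0.071) and by the exact permutation test (adjusted p = 0.0945 for each). With undetected entries given the lowest level detected in the same library, the difference was 0.21 log2 for miR-1247-5p (adjusted p = 0.767) and turned to -0.13 for miR-134-5p (adjusted p = 0.848). Raising low levels to 100 ppm left a difference of 0.07 for miR-1247-5p.

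**Figure D4:**
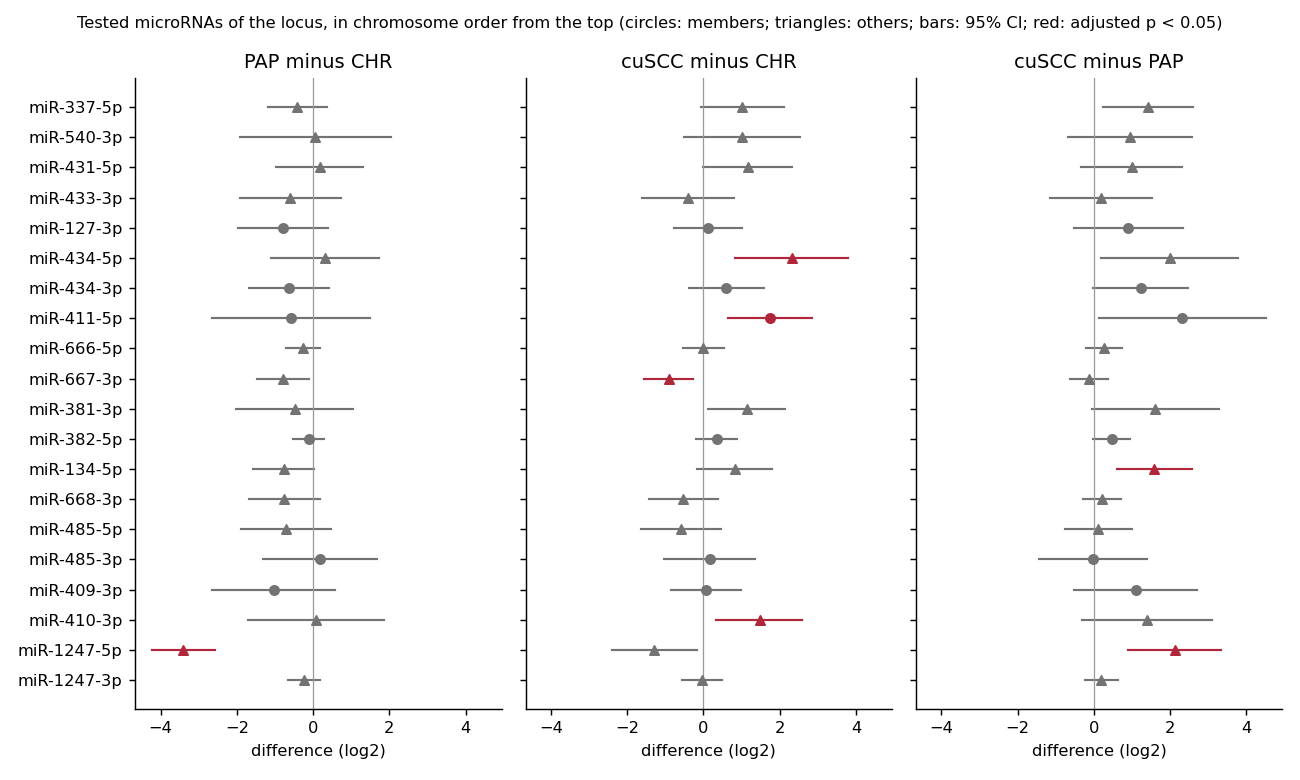
Log2 differences between sample types for the 20 tested locus entries in chromosome order from the top, with the 6 tested members as circles, the 14 others as triangles, bars for 95% confidence intervals and red for an adjusted p under 0.05. In cuSCC minus CHR the red entries are miR-434-5p (2.31), miR-411-5p (1.74), miR-410-3p (1.47) and miR-667-3p (-0.91), and the intervals of most other entries cross 0.

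In the members' hairpins the arm that is no member was mostly near the lowest value. miR-127-5p, miR-411-3p and miR-409-5p were detected in 2, 2 and 1 of the cuSCC libraries and in no CHR or PAP library, while the member arm of the same hairpin was among the abundant locus entries. miR-379-3p, opposite the rarely detected miR-379-5p, was detected in 3 cuSCC libraries, at up to 3.81. miR-300-5p, miR-382-3p, miR-154-3p and miR-541-3p were detected in 0 libraries. miR-434-5p reached higher levels, up to 7.82 log2 ppm in cuSCC. Where both arms were detected, miR-434-3p exceeded miR-434-5p by 3.68 to 5.78 log2 in 4 CHR libraries, by 2.0 to 4.26 in 3 PAP libraries and by 2.72 to 3.61 in 5 cuSCC libraries. miR-485-5p and miR-485-3p stood at similar levels, with differences of -0.66 to 0.15 log2 in the 2 CHR libraries and -0.24 to 1.81 in the 4 cuSCC libraries where both were detected.

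Across the 18 libraries the 4 often-detected members moved together within sample types. On deviations from the mean of each type, which leave out the differences between types, Pearson's r between pairs of members was 0.803 to 0.902 and Spearman's rho 0.680 to 0.872. Without the PAP of mouse 10 the r was 0.614 to 0.885. The tested locus entry closest to their mean was miR-410-3p (r = 0.932). The other tested locus entries were less alike, from 0.17 for the member miR-382-5p to 0.67 for miR-540-3p. The member miR-485-3p had an r of 0.539. These correlations describe 18 libraries whose values share 1 normalisation and, in sets of 3, a mouse, and carry no test.

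The 5 tested microRNAs outside the locus with the pattern most like the mean of the 4 members were miR-152-5p (r = 0.909), miR-214-3p (r = 0.901), miR-199a-5p (r = 0.895), miR-132-3p (r = 0.849) and miR-3102-3p (r = 0.848), whereas the median r over the 273 tested entries outside the locus was 0.052. Without the PAP of mouse 10 these were 0.771, 0.704, 0.740, 0.535 and 0.602. Their differences between cuSCC and CHR did not follow a common direction, from 0.55 log2 for miR-199a-5p (adjusted p = 0.484) to -2.27 for miR-3102-3p (adjusted p = 0.000344).

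miR-214-3p and miR-199a-5p belong to a list of 7 fibroblast and smooth muscle microRNAs. The levels of this list and of markers of other cell types are given beside those of the members. The summed level of that list was 14.31 to 15.07 log2 in CHR, against 11.03 to 14.05 in PAP and 12.53 to 15.51 in cuSCC, with the lowest PAP and the lowest cuSCC both from mouse 10. Of its 7 entries, 4 were called lower and 0 higher in PAP than in CHR, against 32.4% of all tested entries called. The median log2 difference of the 7 entries was -1.69. Between cuSCC and CHR, 1 was called lower and 0 higher, against 42.3% of all tested entries (median 0.49). Between cuSCC and PAP, 3 were called higher and 0 lower, against 11.6% (median 1.98). The skeletal muscle list, 4 entries of which miR-1a-3p was detected in only 1 library, summed to 15.44 to 15.98 in CHR, against 5.32 to 12.45 in PAP and 6.04 to 14.24 in cuSCC, where mouse 10 gave 6.04 and the other mice 13.56 to 14.24. A sum of 5.32, as in the PAP of mice 3, 7 and 10, means that no entry of the list was detected. Its 3 tested entries were all called lower in PAP than in CHR, against 32.4% of all tested entries. Between cuSCC and CHR, 1 was called lower (against 42.3%), and 3 were called higher in cuSCC than in PAP (against 11.6%). miR-133b-3p and miR-206-3p were detected in 0 PAP libraries. The 7 epithelial entries, such as miR-205-5p and the miR-200 family, summed to 17.50 to 18.51 in CHR, against 17.77 to 18.55 in PAP and 17.50 to 18.54 in cuSCC, and every epithelial entry except miR-200a-3p was detected in 18 libraries. Of these 7, 4 were called higher in PAP than in CHR, against 32.4% of all tested entries called (median log2 difference of the 7 entries 1.24). Between cuSCC and CHR, 3 were called higher, against 42.3% of all tested entries (median 0.88).

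The 2 endothelial entries, both arms of miR-126, summed to 7.84 to 9.35 log2 in CHR, against 7.61 to 9.0 in PAP and 9.26 to 11.17 in cuSCC. Both were called higher in cuSCC than in CHR, against 42.3% of all tested entries called. The 5 leukocyte entries summed to 13.12 to 14.28 in CHR, against 9.03 to 11.82 in PAP and 11.13 to 12.59 in cuSCC, with miR-142-3p detected in only 2 libraries. From CHR to cuSCC its entries went opposite ways, with miR-142-5p up by 1.53 log2 (adjusted p = 0.0132), miR-150-5p at -2.33 (adjusted p = 0.000927) and miR-342-3p at -2.86 (adjusted p = 0.000152). The 3 erythroid entries, of which miR-144-3p was undetected throughout, summed to 16.69 to 17.84 in CHR, against 16.70 to 18.24 in PAP and 14.86 to 17.87 in cuSCC, where miR-451a differed from CHR by 3.99 log2 (adjusted p = 0.000747) and miR-486-5p by -1.27 (adjusted p = 0.0325). In these bulk samples fewer cells of a type and less RNA per cell cannot be told apart. The part of these markers in the levels of the members was not tested.

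**Figure D5:**
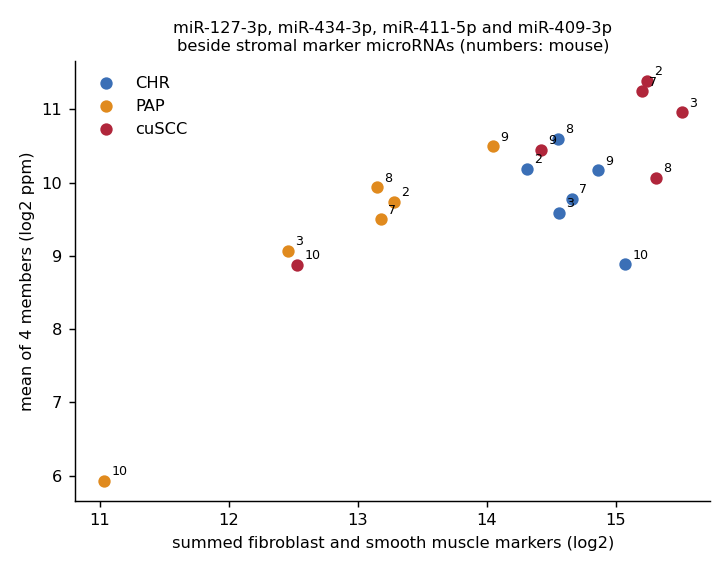
Mean level (log2 ppm) of miR-127-3p, miR-434-3p, miR-411-5p and miR-409-3p in each library against the summed level (log2) of 7 fibroblast and smooth muscle microRNAs, 1 point per library, coloured by sample type and numbered by mouse. The PAP of mouse 10 is lowest on both axes (11.03 and 5.93), the cuSCC of mouse 10 is the lowest of its type on both (12.53 and 8.88), and the CHR of mouse 10 has the highest marker sum of its type (15.07) with the lowest mean level (8.89).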

How the data were processed

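Small RNA libraries of 18 samples were used, 6 each of CHR, PAP and cuSCC. Per the study's methods, the authors removed Illumina adapters, dropped reads that were very short or ended in a homopolymer, compared the remaining reads with miRBase by BLAST and gave each microRNA in ppm of usable reads. Tool versions and the miRBase release are not given in the sources used here, and the submitters' processing notes name the build mm10. The deposited values are log2 ppm, quantile normalised between libraries and never below 3.32, the log2 of 10 ppm. Both features were read from the values. Quantile normalisation makes each value depend on the other entries of its library. Read totals were not used, so no counting error is given.

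Detection means a level over the lowest value. The 293 of 1251 entries with detection in 6 or more of 18 libraries were tested in R 4.3.3 with limma 3.58.1 (two-sided, eBayes after lmFit, 6 libraries per type, no block), with Benjamini-Hochberg adjustment over all tested entries. The code was tested on simulated data. Python 3.11.15 with numpy 2.4.6, pandas 2.3.3, scipy 1.17.1 and matplotlib 3.10.9 was used for the descriptions and plots. Hairpins were placed with RefSeq (GRCm38.p6) and, where RefSeq had no entry, GENCODE M21. Alternatives were mouse as a block, a fit of all 18 libraries, no filter or at least 12 libraries, other values for undetected entries (the lowest detected value of the library, or 100 ppm), centring of libraries, an exact permutation test and leaving out mice. The named microRNAs are the members, the other arms of their hairpins, called entries of the locus and the 5 entries outside the locus most alike. The members and lists were chosen with earlier results of these data known. Levels of marker lists were summed as ppm, with undetected entries at 10 ppm.

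The number of a library is that of its mouse, so libraries pair by animal. Deviations from the type means of a mouse's libraries had a mean r of 0.025 for PAP with CHR (over 0.1 in 2 of 6 mice), -0.068 for cuSCC with CHR (1 of 6) and 0.058 for cuSCC with PAP (2 of 6).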

Additional observations from a re-analysis of the deposited data

Results flagged for a closer look

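Single libraries stood far from the other 5 of their type in 11 of 36 groups examined, 30.6%, by the gap to the nearest library as a share of the group's range (Dixon's test, 95% critical value). Chance gives about 1 in 20 for untied values, which is no comparison here, since in 5 of the 11 groups the other 5 libraries were all undetected and any detected library stands apart. The groups cover the members and the 5 other called locus entries, share libraries and hold many undetected values, and the cause was not tested.

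Mouse 10 was undetected, at 3.32 log2 ppm, in the PAP for miR-411-5p (next PAP 8.54), miR-409-3p (next 6.68) and miR-410-3p (next 6.83), and in the cuSCC for miR-1247-5p (next 5.69) and miR-434-5p (next 6.18). In that PAP the lowest detected entry stood at 6.83. In the cuSCC it stood at 4.50.

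The other groups had 1 high library. The PAP of mouse 8 was the only PAP with miR-1247-5p, at 5.11 log2 ppm, and with miR-667-3p, at 4.25. It had the most detected entries of the PAP libraries, 281, and so their smallest lowest detected level, 3.71. The PAP of mouse 2 alone showed miR-134-5p, at 4.77. The CHR of mouse 2 alone showed miR-300-3p, at 4.43. The cuSCC of mouse 2 alone showed miR-667-3p, at 3.50, and the cuSCC of mouse 7 had the highest miR-379-5p, at 3.81, with the next at 3.47.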

How the results depend on the processing

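Under the alternatives, 264 values of the 6 tested members were set beside the main result. Of these, 236 kept direction and side of the threshold, 4 lost a call, 6 gained one and 18 turned direction. Those that turned include miR-382-5p between cuSCC and PAP, which also gained a call, as given below. The causes were not tested except where stated. Fitting all 18 libraries together left 0 members called between cuSCC and CHR, and leaving out libraries 0 to 2, also 0 to 2 between cuSCC and PAP. With undetected entries given the lowest level detected in the same library, 3 members were called between cuSCC and PAP: miR-411-5p at 1.74, miR-382-5p reversed at -1.50 and miR-485-3p at -1.41. This alternative raises undetected entries most in libraries with few detected entries. It also turned PAP minus CHR for miR-411-5p (0.01) and miR-382-5p (1.30) and cuSCC minus CHR for miR-382-5p (-0.20) and miR-485-3p (-0.18). Centring turned cuSCC minus PAP for miR-485-3p (0.07). When libraries were left out, PAP minus CHR ranged over -0.85 to 0.40 for miR-411-5p and -0.35 to 0.72 for miR-485-3p. cuSCC minus CHR ranged over -0.10 to 0.46 for miR-127-3p, -0.13 to 0.35 for miR-409-3p and -0.21 to 0.57 for miR-485-3p, and cuSCC minus PAP over -0.40 to 0.50 for miR-485-3p. Over all entries, calls between cuSCC and PAP numbered 34, but 2 without a filter, 21 in entries detected in at least 12 libraries, 80 with undetected entries at the lowest detected level, 0 by the exact permutation test (75 at an unadjusted p under 0.05, limma 83) and 1 to 59 without single mice or libraries. Leaving out libraries gave 55 to 79 calls between PAP and CHR and 77 to 131 between cuSCC and CHR. With mouse as a replicate block, miR-411-5p kept its call between cuSCC and CHR (adjusted p = 0.0147) and no call of a member changed; among the called locus entries miR-667-3p lost its call (adjusted p = 0.0529). At 100 ppm or in at least 12 libraries, miR-382-5p and miR-485-3p could not be fitted. Unknown depth limits all statements on the 6 rarely detected members.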
